A study of Mus musculus with 8 samples.

Results

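The genes described here are 3 transcription factors that direct cartilage formation, Sox5, Sox6 and Sox9, and 6 genes of the cartilage matrix that do not encode collagens, Acan, Hapln1, Comp, Matn1, Matn3 and Matn4. They were chosen by name, and every probe set that the array's annotation gives exactly 1 of these symbols was taken. This gave 24 of 45037 probe sets. Of these, 16, from 7 of the 9 genes, passed a filter that left out the probe sets in the lowest 40% by mean signal, and 27021 probe sets passed it in all. The 8 that did not pass are described by their values alone.

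The shelves that grow from both sides of the embryonic mouth and join to form the palate were dissected from mouse embryos at embryonic day 14.5, and their total RNA was hybridised to Affymetrix arrays. There were 4 samples with the genotype R26Pax3/Pax3, numbered 1, 3, 4 and 7, and 4 wild type littermates, numbered 2, 6, 8 and 11. All came from a cross of C57BL/6 and SV129. In the R26Pax3 allele, Pax3, which encodes a factor of neural crest and muscle progenitors, was inserted at the Rosa26 locus. No Cre driver, no cell type in which the allele was active and no number of embryos per sample is given in the sources used here, so the p-values measure only the spread between these samples, which may be technical. In whole tissue, fewer cells of a type and less RNA per cell cannot be told apart.

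Sox9 is required for mesenchymal cells to become chondrocytes, and Sox5 and Sox6, which are closely related to each other, act with it to switch on the genes of the cartilage matrix. That matrix is built on collagen fibrils and on aggrecan, the large chondroitin sulfate proteoglycan encoded by Acan. Aggrecan is held to hyaluronan by link protein, the product of Hapln1. The matrilins, encoded by Matn1, Matn3 and Matn4, and cartilage oligomeric matrix protein, encoded by Comp, join collagen fibrils to other matrix proteins. In the head, such cartilage forms the nasal capsule and the cranial base above the palate, while the bones of the palate itself form without a cartilage model.

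The bases before the start of transcription are shown for the matrix genes on which the results turn, and for the Sox6 window with the most matches as a contrast. They are RefSeq sequences of build GRCm38.p6, 250 bases before an annotated start, read 5′ to 3′ on the strand of the gene. Capitals mark matches to AACAAT or ACAAAG, short sequences of a kind that Sox proteins are known to bind, and to TATAAA, the TATA box, on either strand.
Acan, chr7:79052976-79053225, plus strand: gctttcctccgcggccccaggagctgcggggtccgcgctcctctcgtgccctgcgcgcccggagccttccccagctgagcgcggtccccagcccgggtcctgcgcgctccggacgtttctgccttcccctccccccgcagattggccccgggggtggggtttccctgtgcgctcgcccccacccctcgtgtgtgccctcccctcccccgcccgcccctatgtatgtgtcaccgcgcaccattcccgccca
Hapln1, chr13:89540386-89540635, plus strand: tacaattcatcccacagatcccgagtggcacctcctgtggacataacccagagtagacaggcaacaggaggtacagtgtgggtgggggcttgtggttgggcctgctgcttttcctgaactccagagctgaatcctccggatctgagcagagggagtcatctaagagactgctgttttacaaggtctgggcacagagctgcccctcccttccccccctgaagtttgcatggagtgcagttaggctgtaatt
Matn1, chr4:130944135-130944384, plus strand: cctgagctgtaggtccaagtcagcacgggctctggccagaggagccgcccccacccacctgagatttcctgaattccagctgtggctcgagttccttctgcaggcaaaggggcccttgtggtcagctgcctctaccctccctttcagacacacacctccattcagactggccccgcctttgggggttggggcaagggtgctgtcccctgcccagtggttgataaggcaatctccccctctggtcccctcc
Matn4, chr2:164405161-164405410, minus strand: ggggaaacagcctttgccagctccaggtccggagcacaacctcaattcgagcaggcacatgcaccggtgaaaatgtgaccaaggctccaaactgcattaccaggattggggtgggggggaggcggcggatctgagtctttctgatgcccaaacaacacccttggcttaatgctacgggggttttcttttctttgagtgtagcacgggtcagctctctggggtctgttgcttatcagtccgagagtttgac
Sox6, chr7:115824711-115824960, minus strand: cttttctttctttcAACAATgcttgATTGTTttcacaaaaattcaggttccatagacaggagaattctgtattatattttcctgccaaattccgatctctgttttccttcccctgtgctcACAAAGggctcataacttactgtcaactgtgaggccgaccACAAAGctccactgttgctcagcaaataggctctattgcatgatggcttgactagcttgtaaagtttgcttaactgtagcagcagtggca
The table held 13 such windows for 7 of the 9 genes, and all were searched. AACAAT or ACAAAG occurred in 5 windows, all of Sox6, against 24.0% of all 32851 windows, and in 0 of the 6 windows of matrix genes, those of Acan, Hapln1, Matn1 and Matn3 and both of Matn4. TATAAA occurred in 1 window, also of Sox6, against 12.4% of all. A match is a description of the letters and not a binding site. The window of Acan was 74.4% G and C, against a median of 52.4% over all windows.

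The libraries carried the marks of their labels. Both brighter probe sets of Pax3 were higher in every R26Pax3/Pax3 array than in any wild type array, with log2 fold changes of 1.83 and 1.96 (limma adjusted p = 1.7e-05 and 0.00011), while the dimmest (1441743_at) had -0.29 (limma adjusted p = 1). The median signal of an array lay between 43.5 and 44.8, and a signal below it was taken here as one that may be background. All 8 markers of palate mesenchyme, such as Osr2 and Tbx22, had a signal above that level in at least 1 array. In limma, 4 of the 27021 probe sets had an adjusted p under 0.05, which is 0.0148%.

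None of the regulators was called between genotypes. Sox9 read 182, 152, 137 and 164 in R26Pax3/Pax3 replicates 1, 3, 4 and 7 and 166, 173, 152 and 143 in wild type replicates 2, 6, 8 and 11 on its brighter probe set (1451538_at). The groups overlapped throughout, with means of 159 ± 19.0 and 158 ± 13.2 (SD, n = 4 each) and a log2 fold change of 0.00 (95% confidence interval -0.24 to 0.24, limma adjusted p = 1). On the second probe set (1424950_at) wild type replicates 6, at 183, and 11, at 176, were the highest of the 8 arrays, R26Pax3/Pax3 replicate 3 followed at 162, and the log2 fold change was -0.18 (95% confidence interval -0.51 to 0.16). The third read 2.20 to 12.8 and lay below the array median on all 8 arrays.

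Sox6 was measured above the array median on all 8 arrays by each of its 4 probe sets. The brightest (1434918_at) read 418, 477, 361 and 427 in R26Pax3/Pax3 replicates 1, 3, 4 and 7 and 386, 385, 354 and 404 in wild type replicates 2, 6, 8 and 11. In all, 3 of the mutant arrays lay above every wild type array and 1, replicate 4, lay below 3 of them. The log2 fold change was 0.13 (95% confidence interval -0.08 to 0.34, limma adjusted p = 1). The other 3 probe sets had log2 fold changes of -0.04, -0.02 and 0.03, with 95% confidence intervals inside -0.27 to 0.30, so the direction differed among probe sets of the same gene.

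Sox5, which lies on chromosome 6 as the Rosa26 locus does, was dim. Of its 7 probe sets, 3 passed the filter and the other 4 lay below the array median on all 8 arrays. The brightest (1432189_a_at) read 73.4, 61.8, 43.3 and 55.3 in R26Pax3/Pax3 replicates 1, 3, 4 and 7 and 65.4, 52.5, 52.5 and 57.5 in wild type replicates 2, 6, 8 and 11. The highest and the lowest of the 8 arrays were both mutant. Log2 fold changes on the 3 probe sets were 0.02, 0.09 and -0.15, each with a 95% confidence interval that held 0 and reached no further than -0.50 or 0.45. Over the 9 regulator probe sets that passed the filter, 4 had lower and 5 higher means in R26Pax3/Pax3, the median log2 fold change was 0.00, and the median over all probe sets tested was 0.00.

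**Figure D1:**
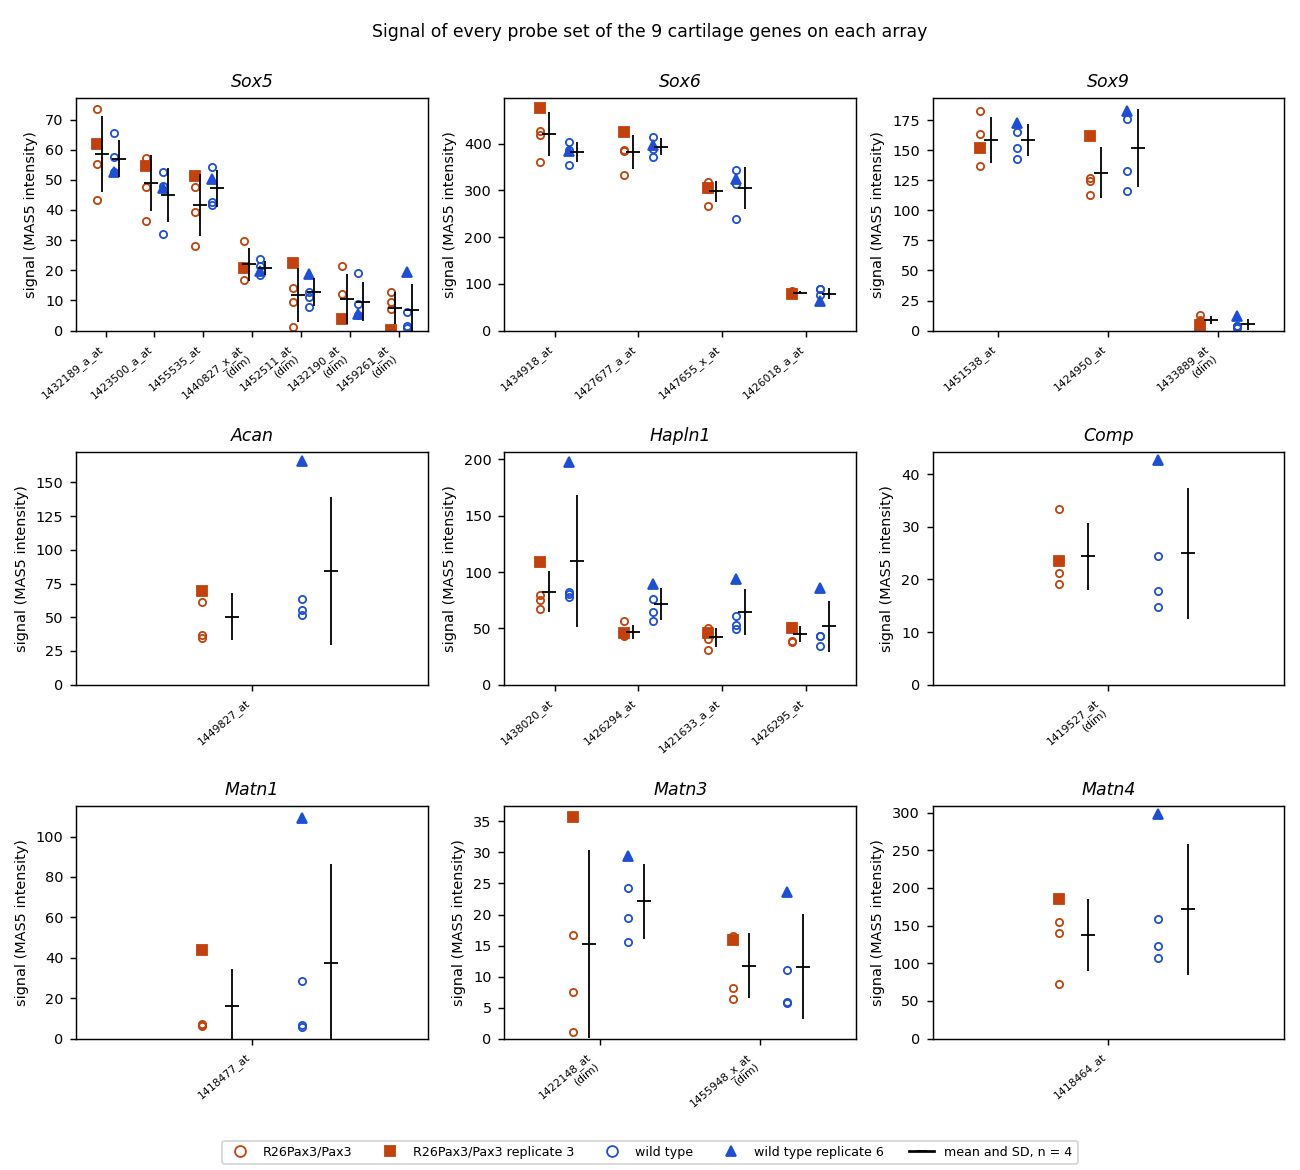
Signal (linear MAS5 intensity) of each of the 24 probe sets on each array, with R26Pax3/Pax3 in orange and wild type in blue, and black bars for the mean and SD of 4 arrays, the lower part of which is not drawn below 0. Filled triangles mark wild type replicate 6, which is the highest point for Acan at 166, Matn1 at 109 and Matn4 at 298, and filled squares mark R26Pax3/Pax3 replicate 3. Probe sets marked dim did not pass the filter.

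Acan, Hapln1, Matn1 and Matn4 had their highest signals in wild type replicate 6. Acan (1449827_at) read 34.7, 69.1, 61.6 and 36.5 in R26Pax3/Pax3 replicates 1, 3, 4 and 7 and 55.7, 166, 51.9 and 63.7 in wild type replicates 2, 6, 8 and 11. The signal in wild type replicate 6 stood 2.90-fold above the mean of the other wild type arrays, R26Pax3/Pax3 replicate 3 was the second highest of the 8, and R26Pax3/Pax3 replicates 1 and 7 lay below the array median. The means were 50.5 ± 17.5 and 84.3 ± 54.6 (SD, n = 4 each), and the log2 fold change was -0.50 (95% confidence interval -1.14 to 0.14, limma adjusted p = 1). Without wild type replicate 6 the wild type mean was 57.1 ± 6.02 (SD, n = 3), inside the range of the mutant arrays, and the log2 fold change was -0.17 (95% confidence interval -0.62 to 0.28, limma adjusted p = 0.969).

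Hapln1 gave different answers on its 4 probe sets. The brightest (1438020_at) read 67.1, 109, 75.3 and 79.6 in R26Pax3/Pax3 replicates 1, 3, 4 and 7 and 82.0, 198, 80.9 and 77.9 in wild type replicates 2, 6, 8 and 11. It followed Acan, with wild type replicate 6 at 2.47-fold over the mean of the other wild type arrays and R26Pax3/Pax3 replicate 3 second. Its log2 fold change of -0.27 (95% confidence interval -0.80 to 0.27) became 0.02 without wild type replicate 6 (95% confidence interval -0.32 to 0.36), and the wild type SD went from 59.0 to 2.12. The second (1426294_at) read 43.0, 45.5, 56.3 and 43.8 in the mutant arrays and 76.5, 89.7, 56.9 and 64.6 in wild type. Here every mutant array lay below every wild type array, if only by 56.3 against 56.9 at the nearest.

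That second probe set had the smallest p of the 16, with a log2 fold change of -0.47 (95% confidence interval -0.79 to -0.15, limma unadjusted p = 0.00825, adjusted p = 0.889). It did not pass over all probe sets. Without wild type replicate 6 the difference was -0.37 (95% confidence interval -0.71 to -0.04, limma unadjusted p = 0.0302, adjusted p = 0.84), and the groups still did not overlap. The third (1421633_a_at) had -0.45 (limma unadjusted p = 0.0302, adjusted p = 0.995) and -0.29 without that array (limma adjusted p = 0.885). The fourth (1426295_at) had -0.11 and 0.11. So 2 probe sets of Hapln1 had lower means in R26Pax3/Pax3 with or without the array, and the other 2 changed sign without it.

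The matrilins were uneven. Matn4 (1418464_at) read 154, 185, 140.1 and 72.0 in R26Pax3/Pax3 replicates 1, 3, 4 and 7 and 107, 298, 159 and 124 in wild type replicates 2, 6, 8 and 11. The highest signal was that of wild type replicate 6, at 2.29-fold over the mean of the other wild type arrays, R26Pax3/Pax3 replicate 3 was second, and R26Pax3/Pax3 replicate 7 was the lowest. The log2 fold change was -0.25 (95% confidence interval -0.89 to 0.39) and 0.03 without wild type replicate 6 (95% confidence interval -0.51 to 0.57, limma adjusted p = 0.996).

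Matn1 (1418477_at), a gene of chondrocytes in most cartilages, read 7.40, 43.7, 6.50 and 6.90 in R26Pax3/Pax3 replicates 1, 3, 4 and 7 and 5.70, 109, 28.5 and 7.00 in wild type replicates 2, 6, 8 and 11. In wild type replicate 6 alone was the signal above the array median. The probe set passed the filter, at a mean of 26.9 against a limit of 25.4, through that array, so its log2 fold changes of -0.49 and, without the array, 0.05 carry no size. Just outside the limit was Comp (1419527_at), at a mean of 24.6. Comp read 21.3, 23.5, 33.4 and 19.2 in the mutant arrays and 14.8, 42.7, 17.8 and 24.4 in wild type, all below the medians of their arrays, with wild type replicate 6 again the highest. Both probe sets of Matn3 lay below the array median on all 8 arrays, at 1.00 to 35.7 and 5.80 to 23.7. The brighter (1422148_at) was highest in R26Pax3/Pax3 replicate 3, at 35.7 against 29.4 in wild type replicate 6, and the other was highest in wild type replicate 6.

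Of the 8 arrays, wild type replicate 6 was the highest on all 7 matrix probe sets that passed the filter and on 1 of the 9 regulator probe sets. These 7 came from 4 genes, and 4 of them measured Hapln1, so they are not 7 separate observations. Over all probe sets tested that array was the highest in 13.4%. Matn1 passed the filter only through that array, which fixed its place, and without Matn1 the count was 6 of 6, from 3 genes. On 4 of the 7, those of Acan, Matn1 and Matn4 and the brightest of Hapln1, it was the highest and R26Pax3/Pax3 replicate 3 was second, an order found in 1.61% of all probe sets tested, and without Matn1 on 3 of 6. The median deviation of the 7 probe sets from their own means was 0.97 in wild type replicate 6 and 0.14 in R26Pax3/Pax3 replicate 3, and between -0.33 and -0.02 in the other 6 arrays, on the log2 scale. Without Matn1 the medians in those 2 arrays were 0.84 and 0.11. For the 9 regulator probe sets the same median lay between -0.14 and 0.13 on every array.

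**Figure D2:**
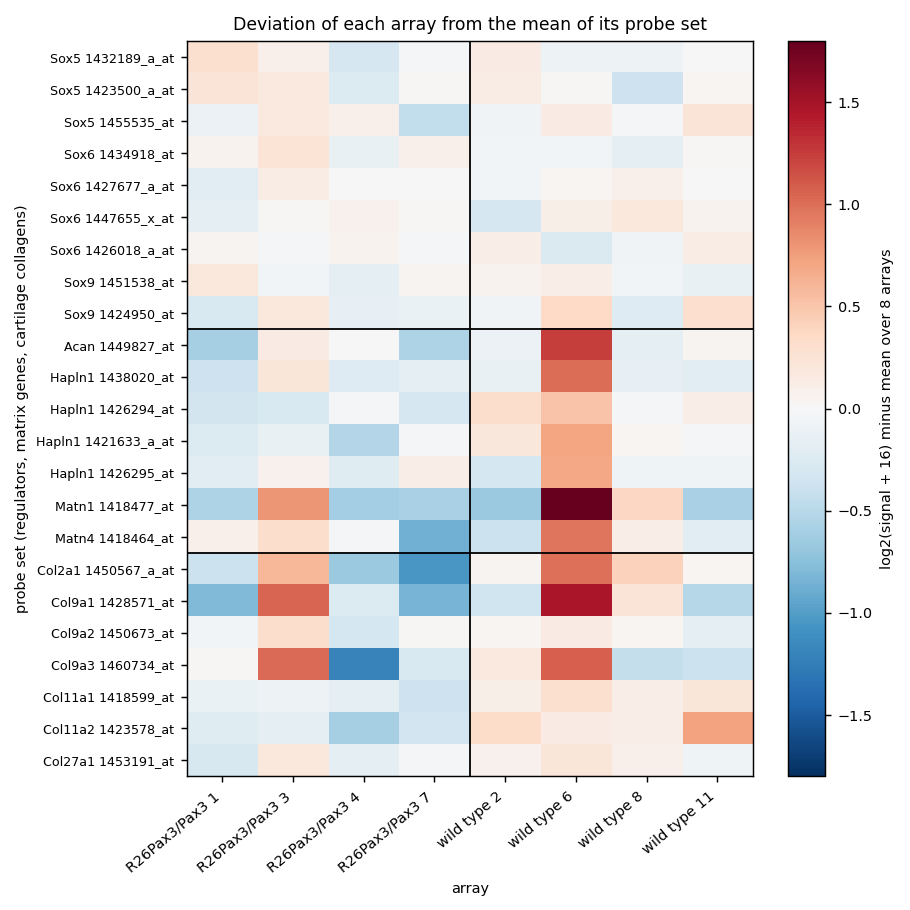
Deviation of each array from the mean of its probe set, in log2(signal + 16), for the 16 member probe sets that passed the filter and the brightest probe set of 7 cartilage collagen genes, with lines between the regulators, the matrix genes and the collagens. The column of wild type replicate 6 is the darkest red of the matrix block, with a median of 0.97 there (0.84 without Matn1). No array stands out among the regulators.

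Which arrays were kept decided how far the matrix genes as a group differed between genotypes. Wild type replicate 6 was the highest on all 7 of their probe sets, so leaving it out could only raise their log2 fold changes. With all 8 arrays, 7 of the 7 matrix probe sets had lower means in R26Pax3/Pax3, with a median log2 fold change of -0.45. Hapln1 gave 4 of the 7, so the medians lean on that gene. Without wild type replicate 6, 3 were lower and 4 higher, with a median of 0.02. The 3 were that of Acan and those of Hapln1 that had lower means in both settings (1426294_at and 1421633_a_at). Without Matn1 the medians were -0.36 with all arrays and -0.08 without wild type replicate 6, and these counts and medians are descriptions. Over all probe sets tested, 49.7% and 51.0% had lower means in R26Pax3/Pax3. With R26Pax3/Pax3 replicate 3 left out as well, an alternative chosen after seeing the data, the median was -0.29, and -0.21 without Matn1. In that setting all matrix probe sets but the fourth of Hapln1 (1426295_at, 0.06) had lower means in R26Pax3/Pax3. Between the first and the last 4 arrays deposited, with 2 arrays of each genotype in each, the sign of the difference was opposite on 7 of the 9 regulator probe sets and on 2 of the 7 matrix probe sets. None of the 16 member probe sets was called (limma adjusted p under 0.05) with or without wild type replicate 6, and the share of all probe sets that passed was 0.0148% in both. At an unadjusted p under 0.05 there were 2 of the 16, both of Hapln1, against 4.86% of all, and 1 without that array, against 5.81%. All mutant arrays lay below all wild type arrays on 1 of the 16, against 1.34% of all, and that count was also 1 without wild type replicate 6, against 2.90%.

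**Figure D3:**
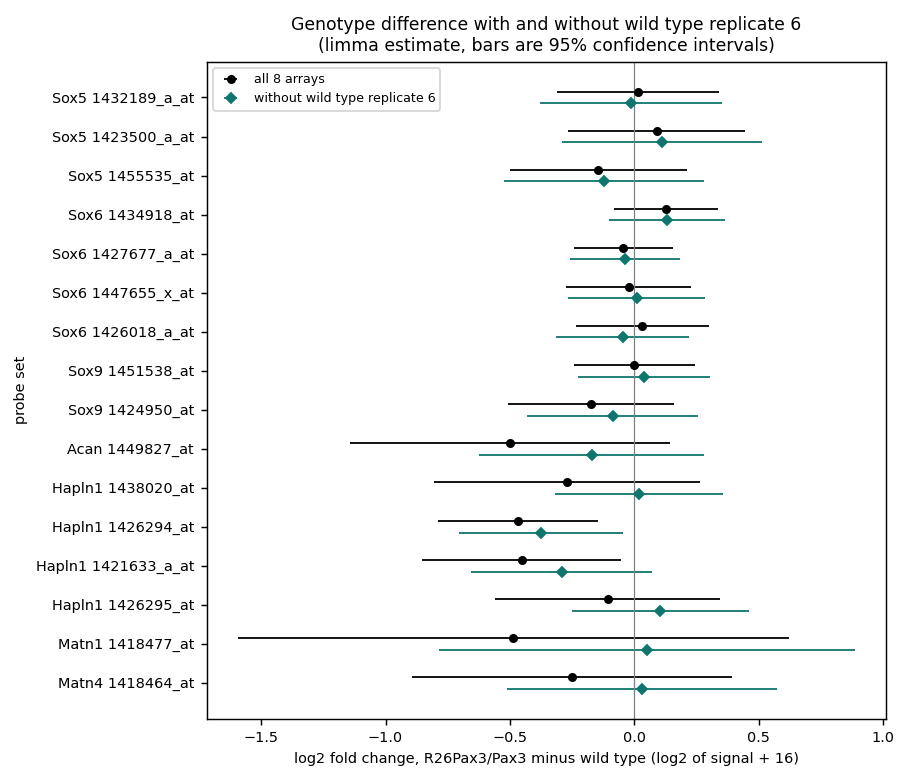
Log2 fold change, R26Pax3/Pax3 minus wild type on the scale of log2(signal + 16), of the 16 member probe sets with all 8 arrays (black circles) and without wild type replicate 6 (green diamonds), with 95% confidence intervals from limma. The regulators lie near 0 in both, the matrix genes lie higher without that array, and the second probe set of Hapln1 has intervals below 0 in both (-0.79 to -0.15 and -0.71 to -0.04).

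The collagens with which these proteins assemble were set beside them as a list, 1 probe set per gene. Of 7 cartilage collagens that passed the filter, 7 had lower means in R26Pax3/Pax3 with all arrays (median log2 fold change -0.38) and 4 without wild type replicate 6 (median -0.11), and 0 were called in limma. With R26Pax3/Pax3 replicate 3 left out as well, 7 were lower and the median was -0.37. At an unadjusted p under 0.05 there were 3 of the 7, against 4.86% of all probe sets tested. Without wild type replicate 6 there were 2, Col11a1 and Col11a2, against 5.81%. Col2a1, the main fibril collagen of cartilage, read 343, 697, 279 and 212 in the mutant arrays and 468, 916, 609 and 465 in wild type, again highest in wild type replicate 6 and next in R26Pax3/Pax3 replicate 3. Its log2 fold change was -0.75 (SE 0.306, limma adjusted p = 0.995), -0.54 without that array and -0.86 without both arrays, again uncalled. Col11a1 (-0.38 and -0.34) and Col11a2 (-0.66 and -0.72) had differences of like size with and without wild type replicate 6. Neither overlapped between genotypes (limma adjusted p = 0.47 and 0.497), against 1.34% of all probe sets tested that were lower without overlap. Col27a1 had -0.15 and -0.11. All 7 osteoblast markers past the filter, given with the other marker lists, also had lower means in R26Pax3/Pax3. Col10a1, the collagen of hypertrophic chondrocytes, read 0.90 to 3.00 on all arrays, below their medians.

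Among 12 other cartilage matrix genes past the filter, 8 had lower and 4 higher means, with a median log2 fold change of -0.05, and 5 were lower without wild type replicate 6. Hspg2, the heparan sulfate proteoglycan perlecan, read 188 ± 16.3 against 240 ± 24.2 (SD, n = 4 each) with no overlap between genotypes and a log2 fold change of -0.33, and -0.29 without that array (limma adjusted p = 0.889 and 0.84). Prelp, a leucine-rich proteoglycan, had -0.33 and -0.34, also without overlap, with all mutant values under the medians of their arrays, and Prg4, the lubricant of joints, had -0.37 and -0.42. Hapln3, a relative of Hapln1, had a log2 fold change of 0.34, which was 0.13 without the array. Neither Hspg2 nor any other gene of this list was called, and 2 of the 12 had an unadjusted p under 0.05, against 4.86% of all probe sets tested. Also 2 of the 12 did not overlap, against 1.34% of all that were lower in R26Pax3/Pax3 without overlap.

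Other regulators of cartilage followed the Sox genes in having no call. Of 10 past the filter, 7 had lower means with all arrays and 7 without wild type replicate 6, with medians of -0.12 and -0.11. The ubiquitin ligase Wwp2 had a log2 fold change of -0.24, Fgfr3, a receptor that restrains chondrocyte growth, -0.23, the transcription factor Mef2c -0.16, and Pth1r, the receptor of parathyroid hormone-related protein, -0.21. Without wild type replicate 6 Pth1r had -0.34 (limma unadjusted p = 0.03, adjusted p = 0.84). It was the only 1 of the 10 with an unadjusted p under 0.05 there, against 5.81% of all probe sets tested. Of 19 genes that make chondroitin sulfate, the sugar chain that aggrecan carries, 13 had lower means in both settings, with medians of -0.05 and -0.02. The smallest p among them belonged to Chpf2 (log2 fold change -0.24), a chondroitin polymerising factor, followed by the sulfotransferase Chst13 (-0.31), Chpf (-0.24) and the xylosyltransferase Xylt2 (-0.24), and none was called.

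Of 7 genes of aggrecan breakdown past the filter, 5 had lower means (median -0.06). Adamts5, an aggrecan-cleaving protease, read 113 ± 24.7 against 145 ± 17.1 (SD, n = 4 each), and its log2 fold change of -0.33 was -0.27 without wild type replicate 6 (limma adjusted p = 1 and 0.89). Adamts9 had -0.10, the collagenase Mmp13 -0.17 and Adamts4, another aggrecanase, -0.06, and without that array these were -0.16, -0.29 and -0.08. Of 9 relatives of the matrix genes past the filter, 7 had lower means (median -0.09). The thrombospondins Thbs3 (-0.25), Thbs1 (-0.20) and Thbs2 (-0.09, and -0.04 without wild type replicate 6), which are of the family of Comp, were lower in the mean, and Ncan, a brain relative of Acan, had 0.18. In the last 4 lists, from the other regulators on, 0 genes were called in limma with or without wild type replicate 6. The genes with an unadjusted p under 0.05 numbered 2 of 45 with all arrays, near the 4.86% of all probe sets tested.

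Wild type replicate 6 also stood at one end of the wild type arrays in other marker lists, summed over the brightest probe set of each gene. The 5 neuronal markers summed to 1062 in wild type replicate 6 and 901 in R26Pax3/Pax3 replicate 3, the highest of each genotype, against 115 to 524 in the other wild type arrays. The 6 skeletal muscle markers summed to 1248 in wild type replicate 6, against 2349 to 2983 in the other wild type arrays. They lay between 379 and 2833 in the mutant arrays, with R26Pax3/Pax3 replicate 3 at 2298 and replicate 7 the lowest of the 8. The 5 epithelial markers summed to 2335 in wild type replicate 6, the lowest of the 8, against 2975 to 3831 in mutant and 2673 to 3230 in the other wild type arrays. Thus, among the wild type arrays, replicate 6 had high cartilage matrix and neuronal signals and low muscle and epithelial ones. It also had the highest leukocyte sum of these arrays, 1003 against 768.5 to 898.5 in the others. Its endothelial sum (534, others 542 to 659) and its tendon sum were the lowest of them.

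Palate mesenchyme markers summed to 4242 to 4956 in mutant and 4325 to 5075 in wild type arrays, with wild type replicate 6 at 4506, inside both ranges. The 7 osteoblast markers with a probe set summed to 7299 to 8701 and 8563 to 11180, a sum in which Ibsp, at means of 5229 and 5587, had the largest share. Each of the 7 had a lower mean in R26Pax3/Pax3 with or without wild type replicate 6, with median log2 fold changes of -0.54 and -0.50. None was called. At an unadjusted p under 0.05 there were 4 of the 7 with all arrays, against 4.86% of all probe sets tested, and 6 without that array, against 5.81%. Ifitm5, a membrane protein of osteoblasts, had -0.55 and Omd, a proteoglycan of bone, -0.54, both without overlap (limma adjusted p = 0.573 and 0.667). Over all probe sets tested, 1.34% were lower in R26Pax3/Pax3 without overlap. Phex, an endopeptidase of osteoblasts and osteocytes, had -0.70 and, without wild type replicate 6, -0.88 (limma adjusted p = 0.602 and 0.142), and Dmp1, a bone matrix phosphoprotein, -0.78. So the bone markers were lower in the mean with or without wild type replicate 6, and none was highest in it. Wild type replicate 11 was the highest array for Ibsp, Sp7, Ifitm5, Alpl, Phex and Omd. Its osteoblast sum was 11180, against 8563 to 9112 in the other wild type arrays. Differences of the bone markers without wild type replicate 11 are not given here. The matrix probe sets with lower means went from 7 of 7 to 3 without wild type replicate 6, and the collagens from 7 of 7 to 4. With R26Pax3/Pax3 replicate 3 left out as well, all 7 collagens were lower, as were all matrix probe sets but the fourth of Hapln1 (0.06). All 5 muscle markers past the filter were also lower in the mean, and all 5 neuronal markers higher, with 0 called. Their median log2 fold changes were -0.60 and 0.80, and -0.91 and 1.24 without wild type replicate 6. At an unadjusted p under 0.05 (limma) there were 0 with all arrays and 4 neuronal and 0 muscle markers without that array. All 5 epithelial markers were higher too (median 0.23), and 1 had an unadjusted p under 0.05 (limma), against 4.86% of all probe sets tested. All 4 endothelial markers were also higher (median 0.03). Without wild type replicate 6, 1 epithelial and 3 endothelial markers were lower, and 0 were called in either setting. R26Pax3/Pax3 replicates 1, 3 and 4, at muscle sums of 1296, 2298 and 2833, lay within the wild type range of 1248 to 2983. R26Pax3/Pax3 replicate 7 was at 379. The 4 tendon markers summed to 1576 to 1992 and 1530 to 2331, and wild type replicate 6 was the lowest of the 8. Sums of 4 endothelial markers (523 to 682 and 534 to 659), 2 blood markers (161 to 223 and 90.1 to 181) and 4 leukocyte markers (729 to 1084 and 769 to 1003) overlapped between genotypes. Scx in the tendon list, Ckm in that of muscle and Hba-a1 in that of blood were each the only gene of their list below the array median on every array. In the same lists Tnc (1206 to 1907), Acta1 (132 to 1168) and Alas2 (87.3 to 221) lay above it on every array. The part of these lists in the matrix values was not tested.

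**Figure D4:**
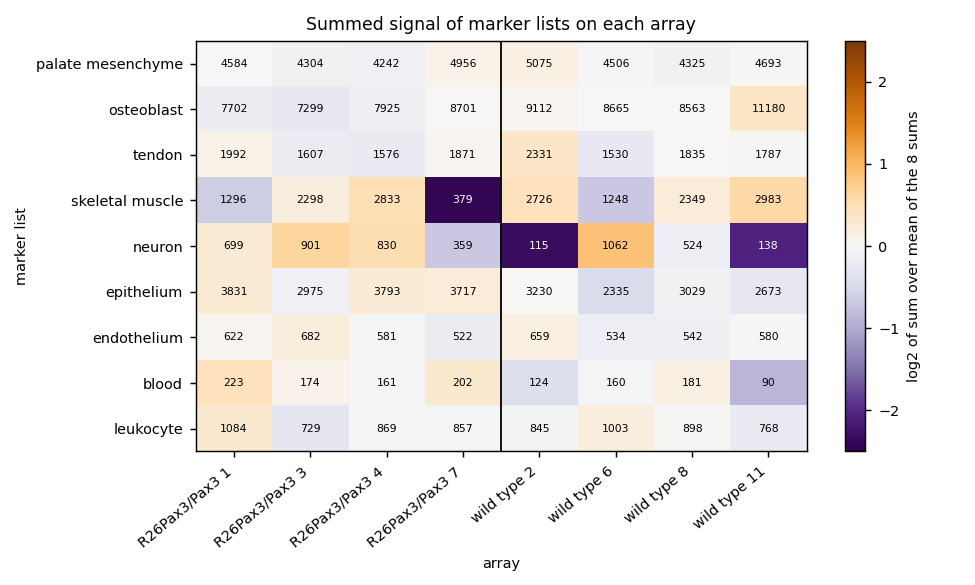
Summed signal of the brightest probe sets of 9 marker lists on each array, printed in the cells, with colour for log2 of the sum over the mean of the 8 arrays. Wild type replicate 6 has the highest neuronal sum, 1062, and the lowest epithelial sum, 2335, while the palate mesenchyme row varies little, from 4242 to 5075.

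The genes whose profile was nearest to that of Acan were sought among 22762 probe sets with 1 symbol outside the 9 genes, by Pearson's r of log2(signal + 16) over the 8 arrays. The first 5 were Acsl3 (r = 0.948), Mia (0.944), Uap1 (0.932), Abi3 (0.927) and Pja2 (0.923), with Spearman's rho of 0.905, 0.929, 0.976, 0.905 and 0.762. Mia, a secreted protein of cartilage, was 165 in wild type replicate 6 and 86.0 to 128 on the other arrays. Without the 2 arrays farthest from the median of Acan, wild type replicate 6 and R26Pax3/Pax3 replicate 1, r was 0.794, 0.735, 0.776, 0.871 and 0.399 over 6 arrays, so the likeness of Pja2 rested on those. The nearest to Sox9 were Med8 (0.983), Vamp3 (0.973), Atp5k (0.972), Rnf41 (0.969) and Synrg (0.966), with r between 0.938 and 0.97 without the 2 farthest arrays, R26Pax3/Pax3 replicates 1 and 4. As the best of so many over 8 arrays that share their scaling, these are descriptions.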

How the data were processed

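Signal intensities were deposited by the authors, who made them with MAS5, per the submitters' processing notes, with no version given. They are linear values per probe set, and MAS5 scales each array to a common level, so a change shared by most genes would not show. Detection calls were not used here. Genes were named from the array's annotation, and the RefSeq tables of GRCm38.p6 gave chromosomes and promoters. The members and lists were chosen with earlier results of these data known.

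Signals were turned into log2(signal + 16), and fold changes on that scale understate those of dim genes. After leaving out 64 control probe sets and the lowest 40% by mean signal, 27021 of 45037 probe sets were fitted in limma 3.58.1 (R 4.3.3, lmFit, eBayes with an intensity trend, two-sided, no covariate), with Benjamini-Hochberg adjustment over all and calls at an adjusted p under 0.05. The fit was tested on simulated data. Fits without wild type replicate 6 kept the same probe sets. Genes named outside the members were up to 4 per list by smallest p and the 5 nearest to Acan and to Sox9. By contrast, Col10a1, Cnmd, Chadl, the Col9 genes, Matn2, Fmod and single markers were named after their values were seen. Alternatives were pseudocounts of 1 and 64, other filters, quantile normalization, no trend, the first and last 4 arrays as a block, and each array left out. The number of arrays, 4 per genotype, limits the precision.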

Additional observations from a re-analysis of the deposited data

Results flagged for a closer look

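In 32 groups of 4 arrays, 1 for each genotype and member probe set past the filter, 3 held an array set apart from the others, by a gap to its neighbour over the group's whole range above Dixon's 95% critical value for 4, on the log2 scale. Chance flags about 5% of such groups. Wild type replicate 6 was set apart above the other wild type arrays for Acan (0.837) and for the brightest probe set of Hapln1 (0.948). R26Pax3/Pax3 replicate 3 was set apart above the other mutant arrays for Matn1 (0.96), although its 4 mutant signals were all under their array medians.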

How the results depend on the processing

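No member probe set was called in limma under any alternative, and the smallest adjusted p among them was 0.706. The count of calls over all 27021 probe sets was 4 in most settings, lay between 4 and 9 when 1 array was left out (9 without R26Pax3/Pax3 replicate 3, 6 without wild type replicate 2), and was 7 without wild type replicate 6 and R26Pax3/Pax3 replicate 3 together. The median log2 fold change of the members, -0.13, was between -0.21 and -0.0013 when 1 array was left out, nearest to 0 without wild type replicate 6, and -0.25 with 1 probe set per gene. Leaving out 1 array turned the sign of 10 uncalled probe sets. Their log2 fold changes then ranged from -0.832 to 0.0513 for Matn1, from -0.421 to 0.0303 for Matn4, from -0.388 to 0.0189 for the brightest and from -0.232 to 0.105 for the fourth probe set of Hapln1. For Sox5 they ranged from -0.0765 to 0.121 and from -0.0192 to 0.19, for Sox6 from -0.0932 to 0.0173, from -0.128 to 0.0348 and from -0.0464 to 0.0819, and for Sox9 from -0.0625 to 0.0612. Without both arrays, signs turned for the fourth probe set of Hapln1 (0.0633), the dimmest of Sox6 (-0.0308) and the brightest of Sox5 (-0.0389). The cause was not tested. Neither pseudocount nor quantile normalization turned a sign, and the filters, the trend and the balanced block leave log2 fold changes as they are. Within the first and the last 4 arrays deposited, Acan differed by -0.76 and -0.24, Matn1 by -0.997 and 0.02, and the second probe set of Hapln1 by -0.54 and -0.39. Sox5 differed by 0.38 and -0.20 (1423500_a_at) and 0.28 and -0.25 (1432189_a_at), and Sox6 by -0.22 and 0.17 (1447655_x_at), 0.17 and -0.10 (1426018_a_at) and 0.26 and -0.0078 (1434918_at). The median of the cartilage collagens was -0.59 without R26Pax3/Pax3 replicate 3 and -0.11 without wild type replicate 6. No paired analysis was possible because the sample labels give no litter. The genotypes also share no replicate number. Dim signals limit Comp, Matn1, Matn3 and most probe sets of Sox5.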

Other observations

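The order of Acan, with wild type replicate 6 highest and R26Pax3/Pax3 replicate 3 second, held for 4 of the 7 cartilage collagens and 2 of the 12 other cartilage matrix genes past the filter, against 1.61% of all probe sets tested. The 2 were Cnmd and Chadl. Chadl lay below the median of every array and barely passed the filter, at a mean of 25.55 against a limit of 25.4. That pass was helped by its 37.3 in wild type replicate 6, so its order carries no weight. The genes named here were chosen after their values were seen. Cnmd, which encodes chondromodulin, a matrix glycoprotein that restrains blood vessel growth in cartilage, read 165 in wild type replicate 6 and 137 in R26Pax3/Pax3 replicate 3, against 40.5 to 78.3 on the other 6 arrays. Col9a1, a chain of the collagen that decorates cartilage fibrils, read 805 and 600 on those arrays, against 151 to 333 on the others, and Col9a3 read 188 and 179, against 25.7 to 93.2. Col9a2, the partner chain of Col9a1 and Col9a3, read 176 in R26Pax3/Pax3 replicate 3 and 154 in wild type replicate 6, the highest of the 8, against 107 to 141. Other genes of both lists did not follow it. Hapln3 was lowest in wild type replicate 6, at 13.1 against 29.1 to 47.3, Prg4 was highest in wild type replicate 8, and Col11a2, Matn2 and Fmod were highest in wild type replicate 11.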
